A study of Homo sapiens with 6 samples.

Results

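The nuclear-encoded subunits of the mitochondrial respiratory chain and ATP synthase were examined in COV434 cells treated with 4HC. Members were taken by gene symbol, as the NDUFA, NDUFB, NDUFC, NDUFS and NDUFV genes, SDHA to SDHD, the UQCR genes, CYC1, CYCS, the COX4I, COX5, COX6, COX7 and COX8 genes and the ATP5 genes, with assembly factors left out. This gave 84 of the 16798 coding genes in the deposited gene table. Complex I contributed 37 genes, complex II 4, complex III 10, cytochrome c 1, complex IV 13 and complex V 19. NDUFA4 was kept in complex I by its symbol, although its protein is found in complex IV.

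Total RNA was sequenced from 3 control samples and 3 samples exposed to 15 µM 4HC for 24 h. COV434 is a human line labelled as granulosa cells, all 6 samples came from this 1 line in the same serum-containing medium, and the labels describe no engineered allele in either group. 4HC is the activated form of cyclophosphamide (CTX), and the labels name the treated samples CTX. The labels do not say whether samples of a group were grown separately, so that p-values measure the spread between these samples, which may be technical. Of 10 granulosa cell markers, 9 were in the table and 7 of these were below 1 CPM in every sample. FOXL2, FSHR, CYP19A1 and GATA4 had at most 0.185 CPM in any sample, AMH was between 3.8 and 6.53 CPM, and the granulosa cell markers together summed to 5.31 to 8.51 CPM in control and 5.33 to 6.91 CPM in 4HC. Of 12 epithelial, fibroblast, endothelial and immune markers, 11 were in the table and none of the 6 that could be tested was called by edgeR, DESeq2 or an unadjusted p under 0.05. Their sum was 59.8 to 63.2 CPM in control and 58.9 to 65.7 CPM in 4HC, mostly from DCN. Neither of the 2 granulosa cell markers that could be tested was called by either tool or had an unadjusted p under 0.05. In bulk RNA, fewer cells of a type and less RNA per cell cannot be told apart.

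The respiratory chain passes electrons from NADH (complex I) and succinate (complex II) through coenzyme Q to complex III, and cytochrome c carries them on to complex IV, where oxygen is reduced. Complexes I, III and IV pump protons across the inner membrane, and ATP synthase (complex V) uses that gradient to make ATP. Most subunits are encoded in the nucleus and are assembled with a few encoded by mitochondrial DNA. The deposited gene table held no gene placed on the mitochondrial chromosome, so those genes were not analysed.

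Expression is given as normalised counts scaled to library size (CPM) after TMM scaling, and fold changes as log2 of 4HC over control with their standard error (SE). A gene was called higher or lower at a Benjamini-Hochberg adjusted p under 0.05 in edgeR's quasi-likelihood test across 12368 genes. Of the 84 members, 80 had enough counts to be tested. In 4HC, 24 were higher, 8 were lower and 48 passed in neither direction. Among all genes tested, 19.2% were higher and 17.1% were lower, and the corresponding shares of the members tested were 30% and 10%. All changes were small: the fold of the 80 genes lay between 0.868 and 1.28, against 0.281 to 938 over all genes tested. The median log2 fold change of the members was 0.04, and that of all genes was 0.00.

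Counted by complex, complexes I, II, III and IV together had 24 genes higher and 1 lower of 61 tested, while complex V had 0 higher and 6 lower of 18 tested, and CYCS was lower. At an unadjusted p under 0.05, 3 complex V genes were higher, and DESeq2 called none of them. The median log2 fold change was 0.08 in complex I, 0.04 in complex II, 0.11 in complex III, 0.12 in complex IV and -0.01 in complex V. All 3 4HC samples lay above all 3 controls in 30 members and below them in 12, against 23.4% and 21.9% of all genes tested. The difference between complexes was not tested as such.

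**Figure D1:**
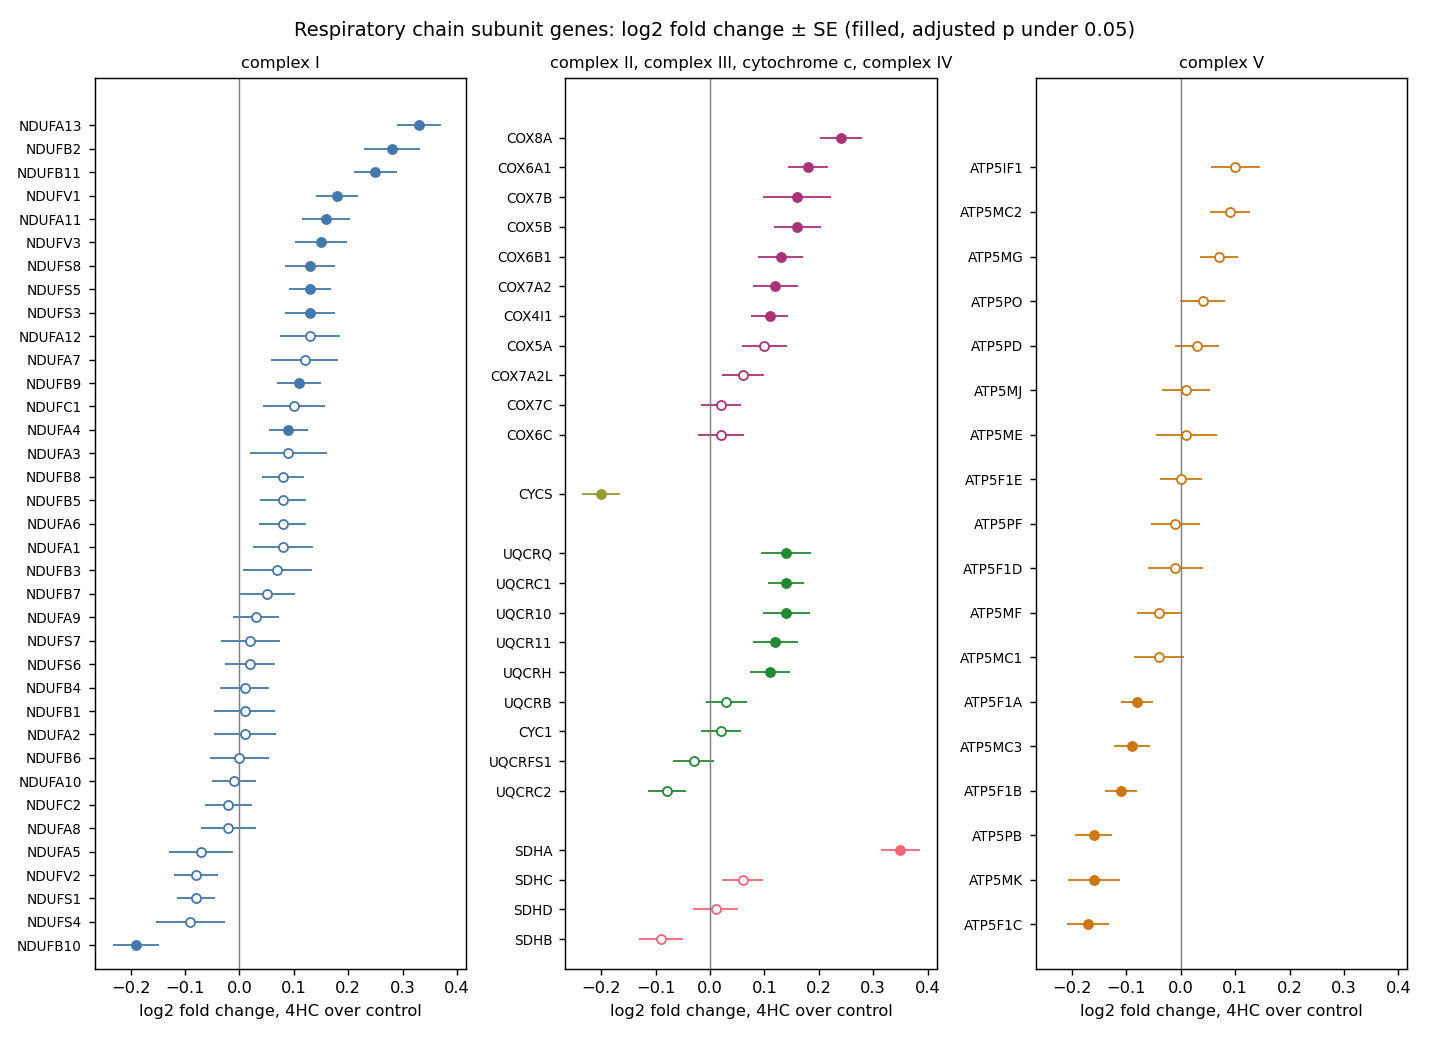
Log2 fold change of 4HC over control (x axis, bars ± SE) for 79 of the 80 genes tested, grouped by complex, with filled points for an adjusted p under 0.05. Filled points of complexes I to IV lie to the right of 0 except NDUFB10, and those of complex V and CYCS lie to the left.

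The shares of reads moved in the same way in each sample. Complexes I, II, III and IV together took 0.64%, 0.647% and 0.636% of the counts in control and 0.688%, 0.695% and 0.682% in 4HC, so that the groups did not overlap. Complex V took 0.426%, 0.427% and 0.432% in control and 0.416%, 0.416% and 0.415% in 4HC, again without overlap and in the opposite direction. This fall was carried by the 2 genes with the most counts, ATP5F1A and ATP5F1B, without which complex V took 0.208%, 0.21% and 0.21% in control and 0.208%, 0.209% and 0.206% in 4HC, with overlap. The median log2 distance of the complex IV genes from the control mean was 0.12, 0.13 and 0.12 in the 3 4HC samples and between -0.03 and 0.01 in the controls. For complex V the median was -0.02, -0.03 and -0.00 in 4HC and between -0.00 and 0.01 in control.

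**Figure D2:**
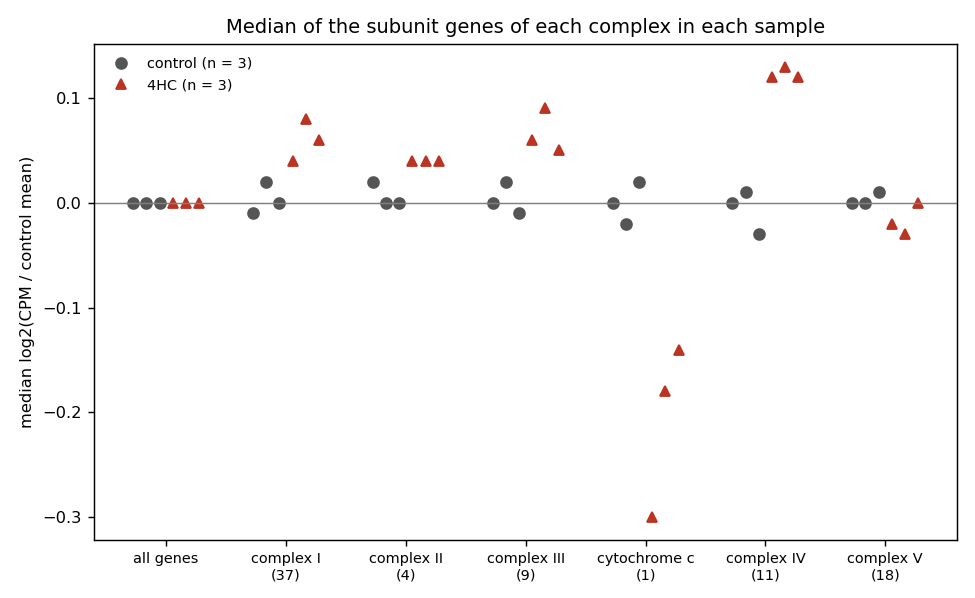
Median over the genes of each complex (x axis, number of genes tested in brackets) of log2 CPM relative to the control mean (y axis), with 1 point per sample, circles for control and triangles for 4HC. In complex IV the 4HC samples sit at 0.12 to 0.13 and the controls at -0.03 to 0.01, and for cytochrome c, which is CYCS alone, the 4HC samples sit at -0.30 to -0.14.

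Upstream sequences were taken from RefSeq (GRCh38.p14), which gave a window of 250 bases before to 50 after the annotated start for 69 of the 84 members by gene ID. The 250 bases before the start, 5′ to 3′ on the strand of the gene, are shown for the genes with the largest rise in complexes II, I and IV and the largest falls in complex V and cytochrome c. Capitals mark CCGGAAG or its reverse complement, which is bound by ETS factors such as GABPA, and GCATGCGC or its reverse complement, the core of the motif bound by nuclear respiratory factor 1 (NRF1).
SDHA, chr5:218070-218319, plus strand: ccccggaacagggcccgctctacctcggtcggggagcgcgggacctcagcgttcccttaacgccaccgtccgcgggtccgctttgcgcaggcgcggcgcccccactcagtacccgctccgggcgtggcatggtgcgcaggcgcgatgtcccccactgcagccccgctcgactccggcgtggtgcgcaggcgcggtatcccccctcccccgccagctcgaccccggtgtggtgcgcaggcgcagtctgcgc
NDUFA13, chr19:19515975-19516224, plus strand: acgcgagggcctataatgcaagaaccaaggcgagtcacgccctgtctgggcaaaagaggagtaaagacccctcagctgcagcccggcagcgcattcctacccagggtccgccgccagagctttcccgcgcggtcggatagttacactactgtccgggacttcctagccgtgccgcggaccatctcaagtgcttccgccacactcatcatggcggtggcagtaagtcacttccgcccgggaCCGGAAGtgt
COX8A, chr11:63974370-63974619, plus strand: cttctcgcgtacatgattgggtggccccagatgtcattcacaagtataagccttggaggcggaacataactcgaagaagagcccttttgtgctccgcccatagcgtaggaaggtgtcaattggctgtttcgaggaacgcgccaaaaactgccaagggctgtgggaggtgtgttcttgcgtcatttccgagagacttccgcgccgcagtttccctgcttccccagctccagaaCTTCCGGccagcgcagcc
ATP5F1C, chr10:7787927-7788176, plus strand: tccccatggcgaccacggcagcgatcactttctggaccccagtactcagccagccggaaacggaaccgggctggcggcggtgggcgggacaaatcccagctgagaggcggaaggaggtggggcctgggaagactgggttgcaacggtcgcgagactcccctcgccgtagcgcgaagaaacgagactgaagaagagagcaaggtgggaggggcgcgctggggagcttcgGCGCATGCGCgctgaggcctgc
CYCS, chr7:25125261-25125510, minus strand: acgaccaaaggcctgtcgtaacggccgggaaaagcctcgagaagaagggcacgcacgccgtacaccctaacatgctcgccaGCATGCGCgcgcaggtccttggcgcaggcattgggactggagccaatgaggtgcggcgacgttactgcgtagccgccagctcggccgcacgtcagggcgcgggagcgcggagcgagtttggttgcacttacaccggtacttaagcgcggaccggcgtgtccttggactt

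The SDHA window held none of the motifs searched. NDUFA13 and COX8A each held 1 ETS letter match, whose first base was at -10 and -18 relative to the start, ATP5F1C held the full NRF1 motif, and CYCS held the NRF1 core. Both strands were searched. The full motif, GCATGCGC with GC before it, reads the same on both strands and contains the core on each strand, and matches to different motifs did not otherwise overlap in the members. CCGGAAG was present in 20 of the 69 member windows (29%) and in 10.7% of 27305 gene windows. For every motif the 27305 windows are those of all genes in the reference, not only of the 12368 genes tested. The shares are therefore not matched for expression. By call, it was in 10 of the 22 windows of genes called higher, 1 of 6 called lower and 9 of 39 that passed in neither direction. The match nearest the start is shown for the other 8 genes called higher, with 10 bases on either side and the motif in capitals.
NDUFS3, chr11:47578981-47579007, plus strand: ccacgtccgcCCGGAAGaagatctgct
UQCR11, chr19:1605543-1605569, minus strand: ctgtaagtggCTTCCGGgtctgcgcgc
UQCRH, chr1:46303642-46303668, plus strand: gtgtgccgcaCTTCCGGccagatcgcc
UQCRQ, chr5:132866578-132866604, plus strand: atggtatctcCCGGAAGttacctcacg
COX4I1, chr16:85799687-85799713, plus strand: gccttgctctCTTCCGGtcgcgggaca
COX5B, chr2:97646047-97646073, plus strand: cagcttgttcCCGGAAGttttgctgct
COX6A1, chr12:120438087-120438113, plus strand: tccacttccgCTTCCGGcgctgcggca
COX6B1, chr19:35648301-35648327, plus strand: cctctctcagCTTCCGGctggtagtag

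The NRF1 core was present in 14 of the 69 windows (20.3%, against 3.27% of all), of which 2 belonged to genes called higher (COX5B and COX6A1), 2 to genes called lower (ATP5F1C and CYCS) and 10 to genes that passed in neither direction. The full motif was in 4 (5.8%, against 1.36%), in NDUFA8, NDUFB4, SDHD and ATP5F1C. AAGATGGCG, a motif of YY1, was in 8 windows (11.6%, against 1.85%), and 7 of these 8 genes passed in neither direction. In 7 of the 8 it began between 11 and 26 bases after the start, as in UQCRC1, SDHB and NDUFS7, shown in the same way.
NDUFS7, chr19:1383914-1383942, plus strand: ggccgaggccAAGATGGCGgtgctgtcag
SDHB, chr1:17054004-17054032, minus strand: gtcaggagccAAGATGGCGgcggtggtcg
UQCRC1, chr3:48609605-48609633, minus strand: ctgcagctggAAGATGGCGgcgtccgtgg

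A letter match describes the window and does not show that a factor was bound in these cells.

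Complex I, the NADH dehydrogenase, had 11 of 37 genes higher (29.7%) and 1 lower (2.7%), against 19.2% and 17.1% of all genes tested. NDUFA13 (chromosome 19), a membrane-arm accessory subunit also known as GRIM-19, was at 100, 103 and 97.7 CPM in control and 127, 130 and 121 CPM in 4HC. All 3 treated samples were above all controls, and the log2 fold change was 0.33 (SE 0.0408, edgeR adjusted p = 3.62e-09). NDUFB2, another accessory subunit, was at 46.9, 51.3 and 51.3 CPM in control and 59.4, 63.5 and 58.8 CPM in 4HC, again with no overlap (log2 fold change 0.28, SE 0.0513, edgeR adjusted p = 1.5e-05). The X-linked accessory subunit NDUFB11 rose from 136, 145 and 131 CPM to 163, 167 and 159 CPM (log2 fold change 0.25, SE 0.039, edgeR adjusted p = 1.03e-06), with every treated sample above the controls.

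NDUFB10, an accessory subunit of the same membrane arm, was the 1 complex I gene that fell. It was at 91.9, 97.3 and 95.4 CPM in control and 84, 80.6 and 84.1 CPM in 4HC, so that the groups were apart (log2 fold change -0.19, SE 0.0431, edgeR adjusted p = 0.000264). Of the 30 accessory subunits, 8 were higher (26.7%) and 1 was lower (3.33%), against 19.2% and 17.1% of all genes tested.

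The 7 nuclear-encoded core subunits, which as a group carry the flavin and the iron-sulfur clusters, had 3 genes higher and 0 lower. Among all genes tested, the shares were 19.2% and 17.1%. At an unadjusted p under 0.05, 1 core subunit was lower, and DESeq2 called 0 lower. NDUFV1, which binds NADH and the flavin, was at 153, 160 and 156 CPM in control and 183, 183 and 166 CPM in 4HC (log2 fold change 0.18, SE 0.0388, edgeR adjusted p = 0.000173). Its partners on the NADH-oxidizing tip, NDUFV2 and NDUFS1, did not pass the test, with log2 fold changes of -0.08 each, although all 4HC values of both lay below all controls. NDUFS3 and NDUFS8, in the arm that leads to coenzyme Q, were both higher by 0.13 on the log2 scale, and neither call held in DESeq2 (adjusted p = 0.075 and 0.0779) or without 4HC replicate 2. NDUFS7, next to the coenzyme Q site, had a log2 fold change of 0.02 and did not pass.

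Complex II (succinate dehydrogenase) has 4 subunits, all nuclear. SDHA, the flavoprotein that oxidizes succinate, was higher in 4HC. It was at 174, 181 and 179 CPM in control and 233, 225 and 224 CPM in 4HC. Every treated sample was above every control, and the log2 fold change was 0.35 (SE 0.0354, edgeR adjusted p = 6.88e-12), a fold of 1.28.

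The other subunits of complex II did not pass the test. SDHB, the iron-sulfur subunit, was at 110, 108 and 111 CPM in control and 104, 104 and 102 CPM in 4HC, lower in each treated sample but with an adjusted p of 0.0915 in edgeR (log2 fold change -0.09, SE 0.0403). The membrane anchors SDHC and SDHD had log2 fold changes of 0.06 (SE 0.0378) and 0.01 (SE 0.041). SDHC was at 155, 153 and 144 CPM in control and 157, 155 and 159 CPM in 4HC, and SDHD at 103, 99.5 and 100 against 102, 103 and 100 CPM. SDHA has near-identical pseudogene copies that are not in the coding table, and reads could have been divided between them.

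**Figure D3:**
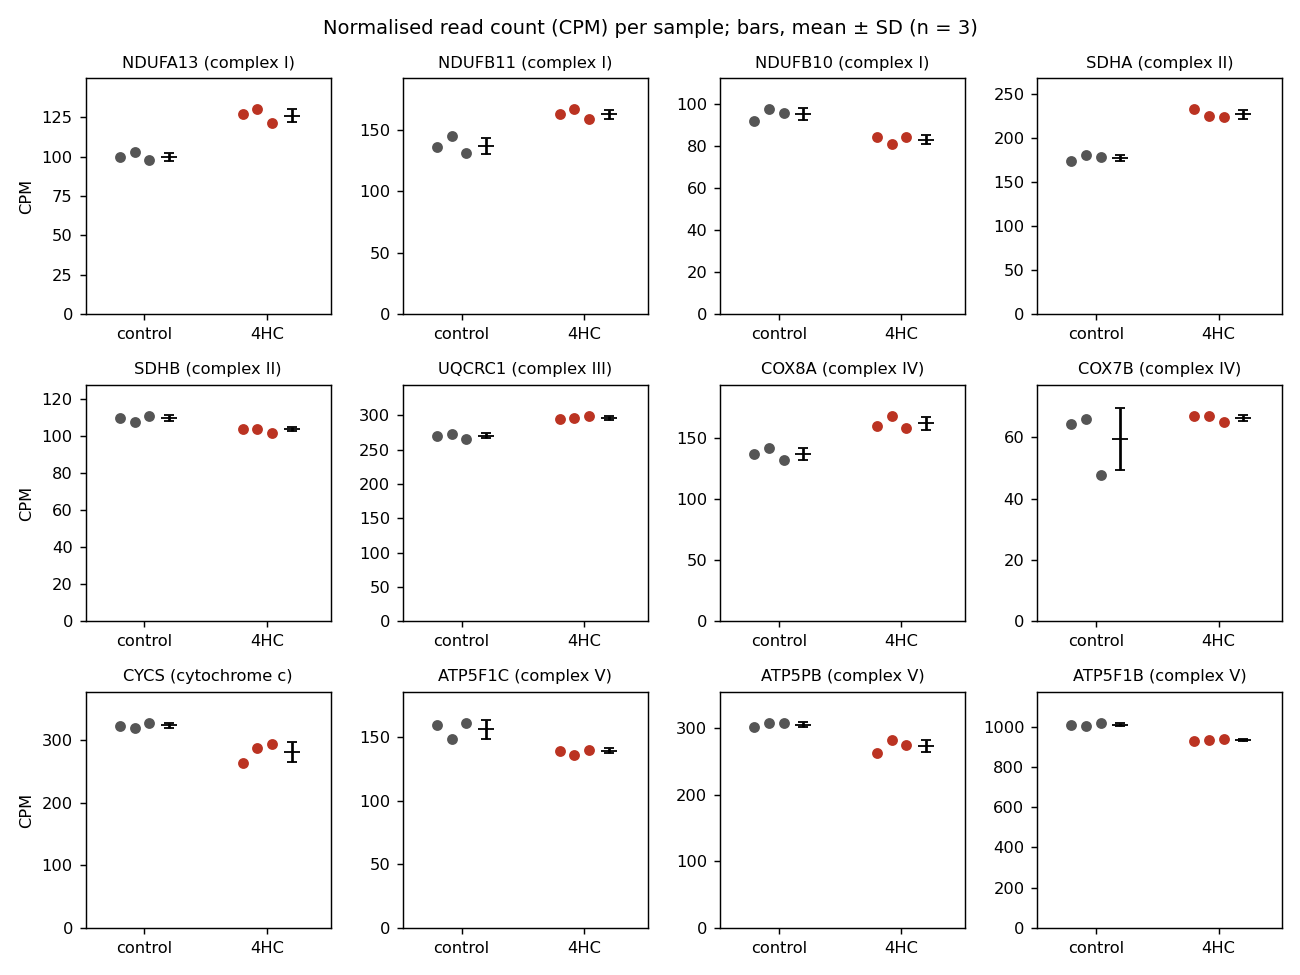
CPM per sample (y axis from 0) of 12 members in control and 4HC, with the mean ± SD of 3 samples beside the points. The groups do not overlap in 11 of the 12 genes, and COX7B overlaps because 1 control sits at 47.8 CPM. The genes were chosen for display, and all but SDHB were called, so this count does not describe the members. Over all genes tested, all 4HC values lay above all controls in 23.4% and below them in 21.9%.

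Complex III had 5 of 9 tested genes higher and 0 lower, against 19.2% and 17.1% of all genes tested. At an unadjusted p under 0.05, 1 was lower, and DESeq2 called 0 lower. UQCRC1, a large core protein of the complex, was at 270, 273 and 266 CPM in control and 294, 296 and 299 CPM in 4HC, without overlap (log2 fold change 0.14, SE 0.0331, edgeR adjusted p = 0.00082). The small subunits UQCR10 (edgeR adjusted p = 0.01) and UQCRQ (edgeR adjusted p = 0.0106) also rose by 0.14. UQCR10 was at 91, 87.8 and 93.3 CPM in control and 94.6, 101 and 104 CPM in 4HC. UQCRQ was at 83.4, 88.1 and 77.2 CPM in control and 94.3, 88.2 and 92.3 CPM in 4HC, where the lowest treated value lay just above the highest control. In both genes the gap between the groups was smaller than the spread within them.

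UQCR11 and the hinge protein gene UQCRH were higher by 0.12 and 0.11. CYC1, which carries the haem that passes electrons to cytochrome c, did not pass, with 210, 225 and 210 CPM in control and 222, 222 and 209 CPM in 4HC (log2 fold change 0.02, SE 0.0363). The Rieske protein gene UQCRFS1 and the second core protein gene UQCRC2 had log2 fold changes of -0.03 and -0.08 and did not pass. The count of 5 became 3 with DESeq2, with limma on log2 TPM and after centring on GC content, and UQCRC1 was not called after that centring. Leaving out 1 sample gave 3 or 4, and the calls of UQCRQ (without 4HC replicate 1 or control replicate 3), UQCR10 (without 4HC replicate 3 or control replicate 2), UQCRH (without 4HC replicate 3 or control replicate 1) and UQCR11 (without 4HC replicate 1 or 2 or control replicate 3) were lost in turn.

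CYCS, the single gene for somatic cytochrome c, was lower in 4HC. It was at 323, 320 and 328 CPM in control and 264, 287 and 294 CPM in 4HC. The highest treated sample was below the lowest control, and the 4HC samples spread more widely than the controls (281 ± 15.6 against 324 ± 3.9 CPM, SD, n = 3). The log2 fold change was -0.20 (SE 0.0352, edgeR adjusted p = 5.18e-06). Its electron donor gene CYC1 did not pass the test, and 7 genes of its acceptor, complex IV, were higher.

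Complex IV (cytochrome c oxidase) had 7 of 11 tested genes higher and 0 lower, against 19.2% and 17.1% of all genes tested. None was lower at an unadjusted p under 0.05 or in DESeq2, and all 11 log2 fold changes were above 0. COX8A was at 137, 142 and 132 CPM in control and 160, 168 and 158 CPM in 4HC, without overlap (log2 fold change 0.24, SE 0.0387, edgeR adjusted p = 1.08e-06). COX6A1, the isoform of subunit 6A found outside muscle, was at 174, 174 and 173 CPM in control and 192, 203 and 196 CPM in 4HC (log2 fold change 0.18, SE 0.0359, edgeR adjusted p = 6.96e-05). Its groups were apart by more than their spread.

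COX4I1, a subunit with a regulatory role, was at 265, 283 and 278 CPM in control and 294, 297 and 304 CPM in 4HC, and rose by 0.11 (SE 0.0339, edgeR adjusted p = 0.0061). COX5B, COX6B1 and COX7A2 were higher by 0.16, 0.13 and 0.12. COX7B was called higher (log2 fold change 0.16, SE 0.0619, edgeR adjusted p = 0.0371), but its controls were at 64.5, 66 and 47.8 CPM and its treated samples at 66.9, 67 and 65.2 CPM. The groups overlapped, the log2 fold change was 0.02 without control replicate 3, and DESeq2 did not call it (adjusted p = 0.479). COX5A, COX7A2L, COX7C and COX6C had log2 fold changes between 0.02 and 0.10 and did not pass. The calls of COX6B1 and COX7A2 were lost without 4HC replicate 2 or control replicate 3, that of COX5B without control replicate 3 and that of COX4I1 without control replicate 1. The count of 7 became 4 without 4HC replicate 2 and 3 without control replicate 3. With NDUFA4 counted here, complex IV had 8 of 12 genes higher.

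The isoforms of complex IV differed widely in level. COX6A2, the muscle isoform of subunit 6A, had a count of 1 in 1 treated sample and 0 in the other 5 samples. COX6B2, the testis isoform of subunit 6B, had expected counts of 1 to 6 in each sample, against 95.3 to 109 CPM for COX6B1. In complex III, UQCRHL, a near copy of UQCRH, had at most 3.06 expected counts, and reads could not be divided with certainty between the 2. ATP5MGL, a copy of ATP5MG, had a count of 1 in 1 control. These 4 genes were not tested, and a count of 0 in a sample allows up to 3 counts.

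Complex V (ATP synthase) had 6 of 18 tested genes lower (33.3%), against 17.1% of all genes tested. The F1 head, in which ATP is made, had 3 of its 5 genes lower and 0 higher, with none higher at an unadjusted p under 0.05 or in DESeq2. ATP5F1C, the central γ subunit, was at 159, 148 and 161 CPM in control and 139, 136 and 140 CPM in 4HC, without overlap (log2 fold change -0.17, SE 0.0389, edgeR adjusted p = 0.000415). The catalytic β subunit gene ATP5F1B was at 1009, 1001 and 1019 CPM in control and 928, 932 and 937 CPM in 4HC, and its groups were apart by several times their spread (log2 fold change -0.11, SE 0.0292, edgeR adjusted p = 0.00143). ATP5F1A, the α subunit, fell by 0.08 on the log2 scale, from 1186, 1187 and 1221 CPM to 1132, 1128 and 1151 CPM (edgeR adjusted p = 0.0375). It did not pass without 4HC replicate 1 or 2 or control replicate 1 or 3. ATP5F1D and ATP5F1E, the δ and ε subunits, had log2 fold changes of -0.01 and -0.00.

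In the peripheral stalk, which holds the F1 head in place, 1 of 4 genes was lower, against 17.1% of all genes tested. ATP5PB was at 301, 308 and 307 CPM in control and 263, 282 and 275 CPM in 4HC, with every treated sample below the controls (log2 fold change -0.16, SE 0.0338, edgeR adjusted p = 0.000146). ATP5PD, ATP5PF and ATP5PO had log2 fold changes between -0.01 and 0.04.

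Among the small membrane subunits, ATP5MK, known for its part in the dimers of ATP synthase, was at 66.9, 69.3 and 71.2 CPM in control and 60.8, 60.2 and 64.1 CPM in 4HC, also without overlap (log2 fold change -0.16, SE 0.0474, edgeR adjusted p = 0.005). ATP5MF (log2 fold change -0.04) and ATP5ME (0.01), the most abundant members per length in this complex, did not pass. ATP5IF1, the inhibitor of ATP hydrolysis, had a log2 fold change of 0.10 (edgeR adjusted p = 0.0685).

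The proton-carrying c ring is made from 3 genes, ATP5MC1, ATP5MC2 and ATP5MC3, that encode the same mature protein. ATP5MC3 was at 305, 306 and 308 CPM in control and 290, 291 and 285 CPM in 4HC, and fell by 0.09 on the log2 scale (SE 0.0328, edgeR adjusted p = 0.0323). ATP5MC2 was at 160, 171 and 160 CPM in control and 172, 176 and 174 CPM in 4HC, higher in each treated sample without passing the test (log2 fold change 0.09, SE 0.0371, edgeR adjusted p = 0.0534). ATP5MC1 was at 77.3, 73.4 and 73.1 against 74.1, 75.1 and 68.7 CPM and overlapped (log2 fold change -0.04). The c ring genes together took 0.0538%, 0.0546% and 0.0537% of counts in control and 0.0542%, 0.0545% and 0.0529% in 4HC, where the groups overlapped. The call of ATP5MC3 was lost in 7 of 16 alternatives, among them 4HC replicate 2 or 3 or control replicate 1 or 3 left out, and its value stayed between -0.10 and -0.06.

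Of the 24 genes called higher, 7 were called in all 17 fits tried (NDUFA13, NDUFB2, NDUFB11, NDUFV1, SDHA, COX6A1 and COX8A), and of the 8 called lower, 6 (NDUFB10, CYCS, ATP5F1B, ATP5F1C, ATP5MK and ATP5PB). DESeq2 called 15 of the 24 and all 8. Of the 12368 genes tested in edgeR, DESeq2 called 1629 higher and 1605 lower, against 2379 and 2118 in edgeR. Without 4HC replicate 2, 14 members were higher (5 in complex I), and without control replicate 3, 15. Among the called genes, 8 overlap another coding gene by the deposited coordinates. The deposited strands differ from RefSeq for some members, such as CYCS and SDHB, so it is not stated here which overlaps share a strand. Whether counting used strand is not given in the sources used here, so reads of the 8 genes could be shared with their neighbours.

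Levels between genes were compared on the authors' TPM scale, which divides by length. The member with the highest TPM was ATP5MF (1328 ± 72.5 in control, 1252 ± 46.7 in 4HC, SD, n = 3), followed by ATP5ME and COX6A1 at means over all samples of 1211 and 1153 TPM. The ranges of mean ± SD of ATP5MF and ATP5ME overlapped in 4HC (1252 ± 46.7 against 1201 ± 41.6 TPM) and in control (1328 ± 72.5 against 1221 ± 60 TPM). In 4HC, COX6A1 lay between them (1217 ± 29.6 TPM). In complex I the highest were NDUFB1 (1048 TPM), NDUFS5 (1016) and NDUFA13 (750), in complex III UQCRH (1041), CYC1 (368) and UQCRC1 (338), and in complex II SDHB (229), SDHC (184) and SDHD (151). The levels of the shortest genes rest on the length used: the length implied by count and FPKM was 49 bases for ATP5ME and 58 for NDUFB1. Summed TPM was 10097 to 10239 in control and 10597 to 10848 in 4HC for complex I, 6423 to 6485 and 6937 to 7063 for complex IV, and 10223 to 10559 and 9968 to 10123 for complex V, without overlap in each of the 3.

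The GC content of the transcript, which can affect library preparation, was set beside the fold changes. Across the 78 tested members with a matched transcript, Spearman's rho between GC content and log2 fold change was 0.402, and across 12061 genes it was 0.208. This is a description over genes that share 6 libraries. The median GC content was 53.7% in the genes called higher and 47.8% in those called lower. In the most GC-rich of 20 bins of genes, libraries also differed within a group. There the median log2 distance from the mean of all samples was -0.051, -0.001 and -0.08 in control and 0.078, 0.1 and -0.02 in 4HC. When each library was centred within bins of GC content, an alternative chosen after seeing the data, the counts of genes higher and lower were 11 and 1 in complex I, 1 and 0 in complex II, 3 and 0 in complex III, 9 and 0 in complex IV and 2 and 5 in complex V.

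**Figure D4:**
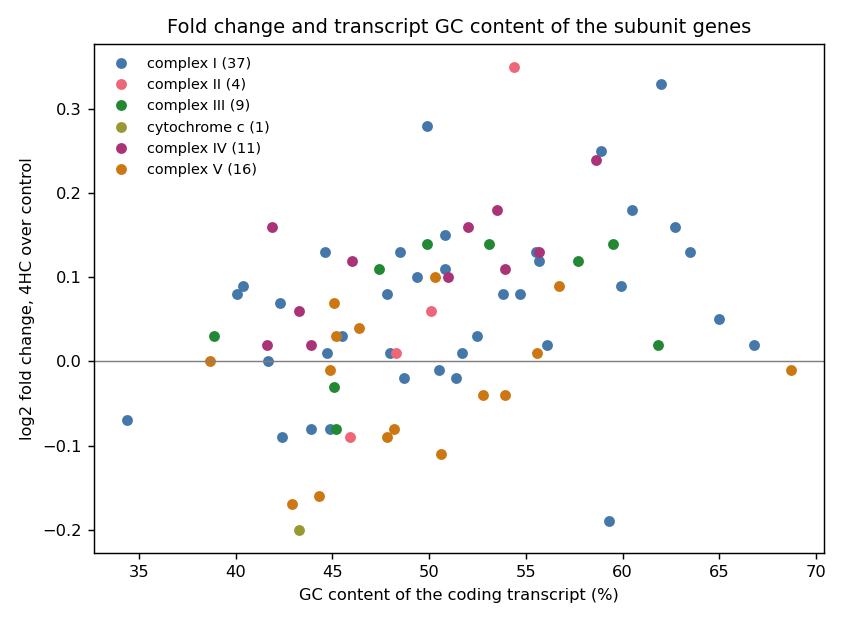
Log2 fold change of 4HC over control (y axis) against the GC content of the coding transcript in percent (x axis) for the 78 members with a matched transcript, coloured by complex. Genes called higher had a median GC content of 53.7% and genes called lower 47.8%, and NDUFB10 is a GC-rich gene with a log2 fold change of -0.19.

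At the level of transcripts, 175 transcripts of 80 members were tested among 42216 transcripts. Of these, 3 were higher and 1 was lower, against 0.706% and 0.587% of all transcripts tested. They were the main transcripts of NDUFA13 (log2 fold change 0.33, edgeR adjusted p = 0.0208), SDHA (0.42, edgeR adjusted p = 0.0292), UQCRC1 (0.14, edgeR adjusted p = 0.0491) and ATP5F1B (-0.11, edgeR adjusted p = 0.0421). The SDHA transcript NM_004168 was at 126, 142 and 139 CPM in control and 186, 179 and 179 CPM in 4HC, and made up 75.8% of the gene's counts in control and 79% in 4HC. In 57 of the 80 genes 1 transcript held over 90% of the counts. Repeated entries of the same transcript, found for members placed on alternate scaffolds, were counted separately. NDUFS3, with 50% of its counts in each entry, is therefore outside the 57, and the 175 include such repeats. At an unadjusted p under 0.05 there were 40 of the 175, and DESeq2 called 8 higher and 5 lower. The biological coefficient of variation estimated over all features was 0.724 for transcripts and 0.0277 for genes, and its part in the number of calls was not tested. None of the 4 was called when any 1 of the 6 samples was left out.

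Assembly factors, the proteins that build the complexes without staying in them, were described from lists chosen by name. Of 59 assembly factor genes, 6 were higher (10.2%) and 12 were lower (20.3%), against 19.2% and 17.1% of all genes tested in edgeR. DESeq2 called 1 higher and 12 lower, against 1629 and 1605 of the 12368 genes. For complex I, 1 of 19 was higher and 3 were lower. NDUFAF8 rose from 69.3, 73.2 and 66.2 CPM to 85.2, 92.1 and 80.7 CPM (log2 fold change 0.31, edgeR adjusted p = 8.77e-07). NDUFAF4 fell from 23.5, 27.6 and 26.8 CPM to 19.7, 19.7 and 19.4 CPM (-0.41, edgeR adjusted p = 5.8e-06), and NUBPL, which delivers iron-sulfur clusters to complex I, fell by 0.31. Both genes had all treated samples below the controls.

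For complex IV, 2 of 24 assembly factors were higher (COX14 at 0.23 and CMC2 at 0.17) and 7 were lower. COX10, which makes haem for the enzyme, was at 23.2, 25.3 and 23.4 CPM in control and 20.3, 19.3 and 19.2 CPM in 4HC (log2 fold change -0.29, edgeR adjusted p = 0.000722), and COX18, a membrane insertase, fell by 0.23. DESeq2 called neither of the 2 that were higher and all 7 that were lower. For complex III, UQCC2 was higher by 0.18 and LYRM7 and TTC19 were lower (log2 fold changes -0.21 and -0.19), with 6 genes tested, where UQCC2 was lost in DESeq2 and without 4HC replicate 3 or control replicate 3 and LYRM7 without control replicate 1. For complex V, ATPAF2 (0.23) and ATPAF1 (0.11), chaperones of the F1 head, were higher and 0 of 6 were lower, with 2 lower at an unadjusted p under 0.05, and DESeq2 called none. The call of COX14 or ATPAF2 was lost without 4HC replicate 2, and that of ATPAF1 in 10 of 16 alternatives. Of 4 complex II factors none was called by edgeR, by DESeq2 or at an unadjusted p under 0.05.

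Coenzyme Q synthesis had 2 of 13 genes higher (15.4%) and 0 lower, against 19.2% and 17.1% of all genes tested. At an unadjusted p under 0.05, 2 of the 13 were lower, and DESeq2 called 0 lower. COQ8A, a kinase-like protein needed for the pathway, rose from 19.1, 20.4 and 18.3 CPM to 29, 27.3 and 25.2 CPM (log2 fold change 0.49, edgeR adjusted p = 8.88e-08). COQ2, which joins the ring to its tail, rose from 31.2, 34.5 and 36.7 CPM to 40.6, 46.5 and 42.4 CPM (0.34, edgeR adjusted p = 1.16e-05). Neither gene had overlapping groups. Of 6 tested genes of other routes that pass electrons to coenzyme Q, ETFB was higher (0.15) and ETFA, DHODH and GPD2 were lower. DHODH, the pyrimidine synthesis enzyme, was at -0.23. The GPD2 call was lost in 12 of 16 alternatives, that of ETFB in 5, and that of ETFA without 4HC replicate 2 or 3 or control replicate 3.

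The transcription factors and coactivators known to control respiratory genes had 0 of 10 higher and 5 lower (50%). Among all genes tested, 19.2% were higher and 17.1% were lower. At an unadjusted p under 0.05, 2 of the 10 were higher, and DESeq2 called 0 higher. PPARGC1B, a coactivator, was at 13.3, 12.4 and 13.6 CPM in control and 10.4, 10.1 and 10.3 CPM in 4HC (log2 fold change -0.35, edgeR adjusted p = 0.00232). PPRC1, a related coactivator, was at 91.2, 94.7 and 92.4 CPM in control and 79.4, 72 and 68.4 CPM in 4HC (-0.34, edgeR adjusted p = 4.29e-08). The groups of both were apart. The other 3 were NRF1 (-0.26), GABPA (-0.13) and YY1 (-0.13), named because their motifs were searched, with the call of GABPA lost without 4HC replicate 1 or control replicate 1, while TFAM and PPARGC1A had log2 fold changes of 0.09 each and did not pass. A last list held related mitochondrial genes outside the symbol rule, not all of them subunits, such as NDUFAB1 (log2 fold change -0.08) and HIGD2A (0.10). Of its 6 tested genes, none was called by edgeR or DESeq2, and 1 was higher at an unadjusted p under 0.05.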

How the data were processed

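RNA of 3 control and 3 4HC samples was analysed, grouped by their labels. Reads had been filtered by the authors with SOAPnuke, and further analysis ran on their provider's Dr. Tom platform. The submitters' processing notes name HISAT2, Bowtie2, RSEM 1.3.1, DESeq2 1.4.5 and GRCh38.p13, and their roles are not given in the sources used here. The authors deposited an expected count per gene and transcript, not normalized, and TPM and FPKM values scaled by them to length and depth. Columns of the authors' own comparison (log2 fold changes, p-values and q-values) were not used, nor was a second gene table with the same values. Expected counts summed to 16133786 to 16702316 per sample, and 85.5% were whole numbers. Of 4 genes too low to test, a count of 0 allows up to 3 counts, for counting error only.

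Expected counts were rounded, scaled by TMM, filtered with filterByExpr and fitted in edgeR 4.0.16 under R 4.3.3 (quasi-likelihood test, condition as the only term, Benjamini-Hochberg over all genes). Alternatives used DESeq2 1.42.0, limma 3.58.1 on log2 TPM or FPKM with a pseudocount of 1 or 0.1, other scalings and filters, a replicate block, a fold of 1.2 and the removal of each sample. The test was first run on simulated data. Transcript GC content came from GENCODE 29, matched by symbol for 97.5% of genes tested. Python 3.11.15 was used for tables and figures.

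Genes named were, per complex, up to 3 with the largest rise and fall among called members, the 3 most abundant by TPM, all SDH genes, CYC1, CYCS, isoforms of the same subunit and untested members, and up to 2 per direction from each other list. Other names (such as NDUFV1, ATP5F1A and NRF1) were added to account for a group or after their values were seen. The members and lists were chosen with earlier results of these data known. Counts of samples in a group differed by a chi-square of 1.7 to 2.46 per gene, more than counting error alone gives. This value cannot tell separate libraries from 1 library sequenced again. No sample was tested as an outlier, for which 3 per group are too few. For 1 member of complex I, values are not reported here.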

Additional observations from a re-analysis of the deposited data

How the results depend on the processing

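With DESeq2, 15 of the 80 members tested were higher, against 1629 of the 12368 genes. Of the 15, 6 were among the 37 genes of complex I and 3 among the 9 tested in complex III. In the other lists 3 genes were higher with DESeq2, and 8 transcripts of members were higher and 5 lower. A fold of at least 1.2 left 3 members higher (SDHA, NDUFA13 and NDUFB2), 2 in complex I and 0 in complexes III and IV, and 0 lower in complex I, cytochrome c, complex V and all members together, with 3 higher and 5 lower in the other lists. On library size alone the median log2 fold change of the members was 0.07, 3 complex V genes were higher, and 14 genes of the other lists were higher. On log2(FPKM + 1), 3 complex V genes were higher and 13 genes of the other lists were lower. On log2(TPM + 1) the median was 0.03, and with a pseudocount of 1 or 0.1 there were 2 lower in complex I, 1 lower in complex II (SDHB), 3 higher in complex III and 1 higher in complex V. GC-bin centring, chosen after seeing the data, gave 3 higher in complex III and 2 higher in complex V. A minimum of 10 counts in every sample, or DESeq2 size factors in edgeR, gave 1 lower in complex III, and the minimum gave 5 transcripts higher and 2 lower, while no filter gave 0 transcripts lower.

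Without 1 sample at a time, 14 to 26 members were higher, 5 to 12 in complex I, 3 to 4 in complex III, 3 to 7 in complex IV and 0 to 2 in complex V. In the same fits 1 to 2 were lower in complex I and 0 to 1 in complex III, the median was 0.04 to 0.06, and 0 to 0 transcripts of members were called in either direction. The fewest members were higher without 4HC replicate 2 (14) and without control replicate 3 (15). COX7B was 0.02 without control replicate 3.

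Among the genes named by the rule, 3 that passed no test changed sign. NDUFB1 was -0.02 on log2 TPM at either pseudocount, -0.01 without 4HC replicate 2 and -0.03 without control replicate 2. CYC1 was -0.06 with GC-bin centring and between -0.00 and 0.05 when 1 sample was left out. ATP5ME was -0.03 with GC-bin centring, -0.02 on log2 TPM at either pseudocount, -0.01 without 4HC replicate 3 and -0.02 without control replicate 2. The causes of these changes were not tested.

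Deviations of samples with the same replicate number correlated at 0.00866, 0.0694 and 0.0302, and 2 of 3 controls correlated best with their own number. With 3 samples per group these values cannot decide whether the numbers pair the samples. With the replicate block 24 members were higher and 8 lower, as without it, and 0 transcripts of members were higher and 0 lower. Precision was lower for members with fewer counts, with an SE of 0.0291 for ATP5F1A and 0.0713 for NDUFA3, which had the lowest mean of the members tested (22.2 CPM).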
